A study of Rattus norvegicus with 12 samples.

Results

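Wistar rat cortical cultures of neurons and glia that received a 3–100 kDa protein preparation were compared with intact control cultures. The preparation came from the secretion of glial progenitor cells (GPCs) that had been grown from human induced pluripotent stem cells, and it was added at 15 µg/mL. The cultures were at 10 days in vitro, RNA was collected 4 h later, and each group has 3 of the 12 libraries of the series. The control cultures received no addition at all, so the comparison holds the proteins together with whatever buffer or medium carried them. The other 6 libraries, from cultures given extracellular vesicles at 10 µg/mL or the total secretome at 45 µg/mL, serve here only as side values. The labels give pups of postnatal day 0, while the methods of the article give newborn pups of postnatal days 1 to 2 and describe cytosine arabinoside in the medium against excess glial growth. According to those methods the GPCs were grown with EGF and CNTF and then washed and moved to serum-free medium before the secretion was collected. How the 3–100 kDa proteins were separated is not given in the sources used here. The article states in general that experiments were repeated on unrelated cultures, and its supplement names a day covariate that was removed before samples were clustered, but neither says which library came from which culture or day. The p-values therefore measure the spread between libraries, which may hold differences between days.

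All genes that reached 1 TPM (transcripts in a library of 1000000, corrected for transcript length) in at least 3 of the 6 libraries were compared, which left 12792 of the 28111 gene names in the files. Levels are given in the deposited TPM and fold changes on the log2(TPM + 1) scale, where genes of low level appear to change less than they do. Control libraries are given in the order of replicates 1, 2 and 3, followed by the treated libraries in the same order. A gene under 1 TPM in every control library passed the filter only through the treated libraries. Among genes named below this holds for Ccl2, Ccl7, Fosl1, Fosb, Clcf1, Osmr, Itga5, Hmga2, Tgfbr2, Lef1 and others. They are counted in the shares of their lists.

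Cells that meet growth factors or cytokines usually answer within hours. Receptor tyrosine kinases switch on the ERK kinase cascade and the PI3K-Akt pathway, and ERK drives immediate early transcription factors of the AP-1 and Egr families, which in turn switch on genes for adhesion, cytoskeleton and secreted factors as well as inhibitors of the cascade itself. In parallel, active Akt keeps FoxO transcription factors out of the nucleus, so that genes held up by FoxO in quiet or starved cells fall. Receptors that use the gp130 subunit, such as those for CNTF, LIF and oncostatin M, act through STAT3 and are known in astrocytes for the reactive state.

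The cultures expressed the markers of the labelled cell types. Summed over 10 neuronal markers, such as the neuronal tubulin gene Tubb3, the level was 4965–5475 TPM in control and 4395–5457 TPM in treated libraries. The 10 astrocyte markers summed to 1068–1537 TPM and 1275–1671 TPM, and none of them passed the test. The astrocyte filament gene Gfap itself stood at 85.05, 361 and 128 TPM in control and 242, 447 and 310 TPM in treated libraries, so the groups overlapped. For glutamatergic neurons Slc17a7 stood at 71.4–73.7 TPM in control and 65.2–85.3 TPM in treated libraries, and for GABAergic neurons Gad1 stood at 138–182 TPM and 151–199.8 TPM. The 8 GABAergic markers summed to 792–1085 TPM and 750.8–905.7 TPM, 6 of them had a lower mean in treated libraries, and their median log2 fold change was −0.24, with none past the FDR threshold. Oligodendrocyte lineage markers summed to 226.6–305.7 TPM in control and 160.3–245.6 TPM in treated libraries, and Pdgfra, the receptor that marks their progenitors, ranged over 35.8–46.9 TPM and 17.6–50.3 TPM. The 10 microglial markers summed to at most 2.54 TPM in any library, none passed the filter, and Ptprc and P2ry12 were listed at 0 in all 6. Endothelial markers summed to 0.225–0.436 TPM in control and 0.917–1.16 TPM in treated libraries, and none of them passed the filter. In RNA of whole cultures, fewer cells of a type and less RNA per cell cannot be told apart.

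The groups separated along the first principal component of the 500 most variable genes (43.2% of the variance), at −20.1 to −18 for control and 14.4 to 22.8 for treated libraries. Along the second (18.1%) the control libraries themselves spread from −20.9 for replicate 2 to 19.2 for replicate 3. Pairs of libraries from different groups correlated across genes at r = 0.926–0.953, and pairs of control libraries at 0.941–0.968, so these ranges overlapped. At a false discovery rate (FDR) under 0.05 in limma, 422 genes differed, which is 3.30% of those tested. Of these, 360 were higher (2.81%) and 62 lower (0.485%) with the 3–100 kDa proteins. In all 422 the lowest library of one group lay above the highest of the other, against 23.6% of all genes tested. At an unadjusted p under 0.05 and a fold change over 1.5 the count was 1286 (10.1%), of which 847 were higher (6.62%) and 439 lower (3.43%). The higher genes moved further: 275 of the 360 changed more than 2-fold, 85 more than 4-fold and 26 more than 8-fold, and their median log2 fold change was 1.39. Among the 62 lower genes 41 changed more than 2-fold and 3 more than 4-fold, with a median of −1.17. These 3, SNORD33, SNORA57 and LOC679823, had treated libraries listed at 0, which may be failed estimates. The median over all genes tested was −0.02. With 3 libraries a side, an exact permutation test of a single gene cannot go below p = 0.1, and the calls therefore rest on the spread that limma shares across genes.

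**Figure D1:**
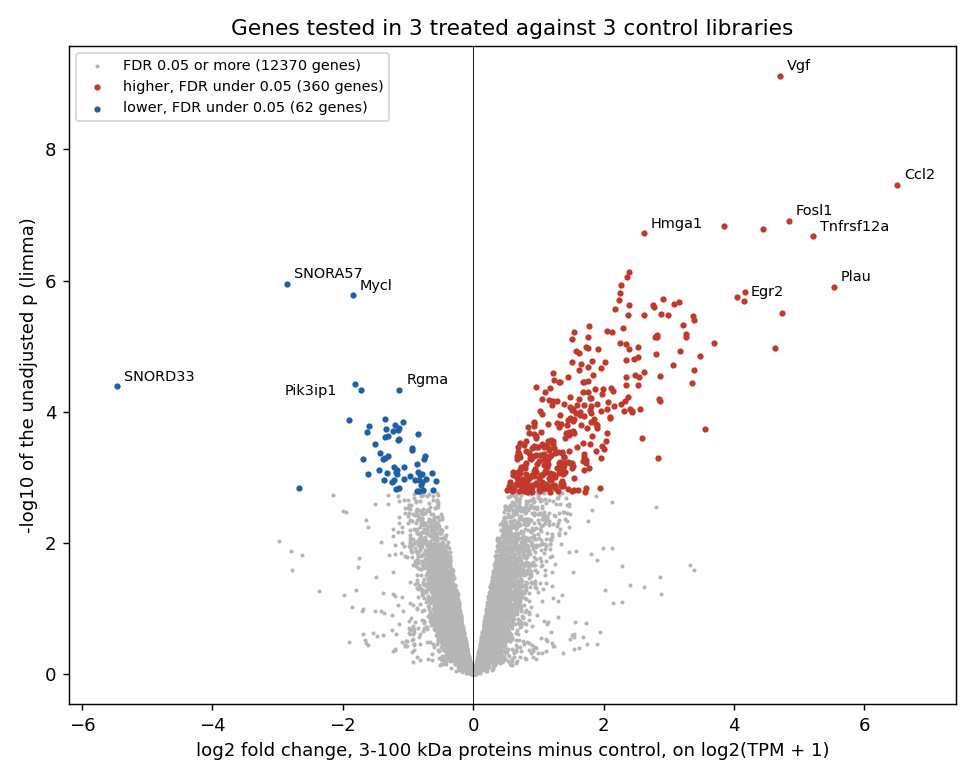
Each point is 1 of the 12792 genes tested, with the log2 fold change of the 3–100 kDa proteins against control on the x axis and −log10 of the unadjusted limma p on the y axis. The 360 genes that were higher (red) reach up to 6.50 on the log2 scale, while most of the 62 lower genes (blue) lie between −0.57 and −1.85.

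Leaving out 1 library kept the direction of all 422 genes but not the number of calls. Without control replicate 1, 143 genes passed, of which 8 were lower, and without treated replicate 2 or 3 the counts were 140 and 127, of which 15 and 9 were lower. Across all 6 omissions 106 of the higher and 6 of the lower genes passed every time, while 43 of the higher and 17 of the lower genes passed in none. With the replicate number as a block, which may or may not stand for the day, 192 genes passed, 176 higher and 16 lower. The lower group is therefore described with each gene's own values. Calls of higher genes were lost as well. Of those named below, Itgb1, Tgfbr2, Mt2A, Igfbp3, Nop58 and Cry1, for example, passed in 1 omission each. Cdk6, Tnfrsf1a and Lef1 passed in 2 each, and Cdkn1a in 3.

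The stretch before the transcription start was searched for 5 motifs in 10 genes named below. It is shown for the 4 that held one, Vgf and Tnfrsf12a among the higher and Mxd4 and Klf15 among the lower genes, while Fosl1, Plau, Mycl, Pik3ip1, Ccng2 and Dll1 held none. These are the 250 bases before the annotated start in the GRCr8 build of RefSeq, written 5′ to 3′ on the strand of the gene. Capitals mark the CRE motif TGACGTCA (a binding sequence of CREB), the E-box CACGTG (bound by Myc and its partners with Max), or the STAT motif TTCNNNGAA. Vgf lies at chr12:25277021-25277270 on the minus strand, Tnfrsf12a at chr10:13213649-13213898 on the minus strand, Mxd4 at chr14:80786531-80786780 on the plus strand and Klf15 at chr4:124522765-124523014 on the plus strand.
Vgf: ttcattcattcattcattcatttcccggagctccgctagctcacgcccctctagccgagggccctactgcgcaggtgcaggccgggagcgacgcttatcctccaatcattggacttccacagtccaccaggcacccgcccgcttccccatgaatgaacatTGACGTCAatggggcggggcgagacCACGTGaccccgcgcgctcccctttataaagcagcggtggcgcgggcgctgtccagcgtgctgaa
Tnfrsf12a: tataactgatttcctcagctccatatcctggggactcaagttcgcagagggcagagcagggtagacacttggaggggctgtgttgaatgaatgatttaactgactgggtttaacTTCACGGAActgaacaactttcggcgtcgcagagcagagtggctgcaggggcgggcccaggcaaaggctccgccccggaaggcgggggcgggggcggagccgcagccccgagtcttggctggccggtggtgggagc
Mxd4: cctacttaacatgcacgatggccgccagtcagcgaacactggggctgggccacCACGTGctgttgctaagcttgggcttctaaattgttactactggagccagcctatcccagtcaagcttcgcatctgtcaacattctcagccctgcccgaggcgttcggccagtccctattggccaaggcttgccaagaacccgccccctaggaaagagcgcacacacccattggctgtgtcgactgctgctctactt
Klf15: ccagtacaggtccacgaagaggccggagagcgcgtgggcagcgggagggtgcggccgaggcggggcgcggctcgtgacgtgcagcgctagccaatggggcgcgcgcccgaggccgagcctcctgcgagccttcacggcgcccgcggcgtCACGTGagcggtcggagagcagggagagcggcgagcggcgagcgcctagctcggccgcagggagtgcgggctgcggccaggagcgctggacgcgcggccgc

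RefSeq gave such a stretch for 262 of the higher and 42 of the lower genes, for 8989 genes tested and for 27457 promoters in all. The E-box, which reads the same on both strands, was in 5.79% of all promoters and 8.20% of those of tested genes, against 8.78% of the higher and 14.3% (6 of 42) of the lower genes. The CRE motif was in 1.70% of all promoters, 3.07% of tested, 3.44% of higher and 2.38% of lower genes. The AP-1 motif TGACTCA, searched on both strands, was in 3.98% of all promoters, 2.69% of tested, 6.49% of higher and 4.76% of lower genes. The FOXO motif TGTTTAC, also on both strands, was in 3.25% of all, 1.81% of tested, 3.44% of higher and 7.14% (3 of 42) of lower genes. The STAT motif was in 7.52% of all, 5.54% of tested, 6.87% of higher and 7.14% of lower genes. These shares are descriptions of letters in a short window and were not tested.

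Among the higher genes, Vgf (listed in the files as LOC100909521), which encodes a secreted neuronal precursor protein induced by neurotrophins, had the lowest p of all genes tested. It stood at 10.5, 10.2 and 11.02 TPM in control and at 300.2, 311 and 276 TPM in treated libraries, a log2 fold change of 4.71 ± 0.12 (SE, n = 3 per group, FDR = 9.7e-06). Each treated library was thus far above every control library. Ccl2, a chemokine that attracts monocytes, rose from 0.378, 0 and 0 TPM to 78.1, 153.9 and 78.5 TPM (FDR = 0.00022). Its log2 fold change, 6.50 ± 0.28, depends on the pseudocount and ran from 4.35 to 9.23 under the alternatives, since 2 control libraries were listed at 0 and such a value may be a failed estimate. A related chemokine gene, Ccl7, rose from 0, 0.300 and 0 TPM to 12.6, 27.2 and 14.0 TPM. Of the 22 chemokine and cytokine genes listed, 7 passed the filter on low values. Ccl2 and Ccl7 were the 2 that passed the test, against 2.81% higher of all genes. Both passed the filter only through the treated libraries, so this share follows in part from the filter and was not tested.

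Some genes of the plasminogen system and of protease inhibitors rose. Plau, the gene of the urokinase-type plasminogen activator, stood at 0.891, 0 and 0.287 TPM in control and at 41.1, 54.4 and 97.2 TPM in treated libraries. Plat, the tissue-type activator, rose from 6.71–8.86 TPM to 25.2–46.3 TPM. Timp1, an inhibitor of metalloproteinases, stood at 9.23, 19.7 and 8.90 TPM in control and 218, 200.1 and 259.9 TPM in treated libraries. In this list 5 of 16 tested genes were higher and 0 lower at the FDR threshold, against 2.81% and 0.485% of all genes, the other 11 had no call, and the median log2 fold change was 0.90. Prss23, a serine protease outside the list, rose from 5.39–7.54 TPM to 29.7–35.8 TPM with little spread in either group.

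Many genes of the ERK cascade's response were higher, again against 2.81% of all genes tested. Of the AP-1 factors 6 of 10 tested were higher, none lower, and the median was 1.37. Fosl1 was at or near 0 in control (0, 0.138 and 0 TPM) and at 22.1, 29.8 and 35.5 TPM in treated libraries. Fosb rose from at most 0.159 TPM to 4.89–7.88 TPM and Jun from 33.3–48.1 TPM to 84.99–98.7 TPM. Fos, the founding member, had 4.46, 4.05 and 2.24 TPM in control and 7.5, 11.2 and 13.04 TPM in treated libraries, with an FDR of 0.051 that missed the threshold. Of 7 Egr and Nr4a factors 2 passed. Egr1 rose from 13.04, 11.8 and 9.94 TPM to 67.2, 119 and 94.3 TPM, and Egr2 from 0.332, 0.269 and 0.480 TPM to 14.2, 29.1 and 28.6 TPM. In Egr1 the highest control library stood well below the lowest treated one. The inhibitors that ERK induces to limit itself had 9 of 16 tested genes higher, none lower, and a median of 1.48. Dusp6, a phosphatase that removes the activating phosphates of ERK, rose from 8.84, 8.05 and 8.54 TPM to 39.0, 53.7 and 52.8 TPM. Dusp14 rose from 3.86–4.32 TPM to 19.7–25.2 TPM, and Spry2, an inhibitor of receptor tyrosine kinase signalling, from 38.3–44.8 TPM to 107–124 TPM. Hbegf, a ligand of the EGF receptor, rose from 11.1–12.3 TPM to 95.0–185 TPM, the 1 called gene of the 9 tested EGF-family ligands and receptors. Phlda1, an early growth response gene, rose from 7.64–11.1 TPM to 68.8–108 TPM.

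**Figure D2:**
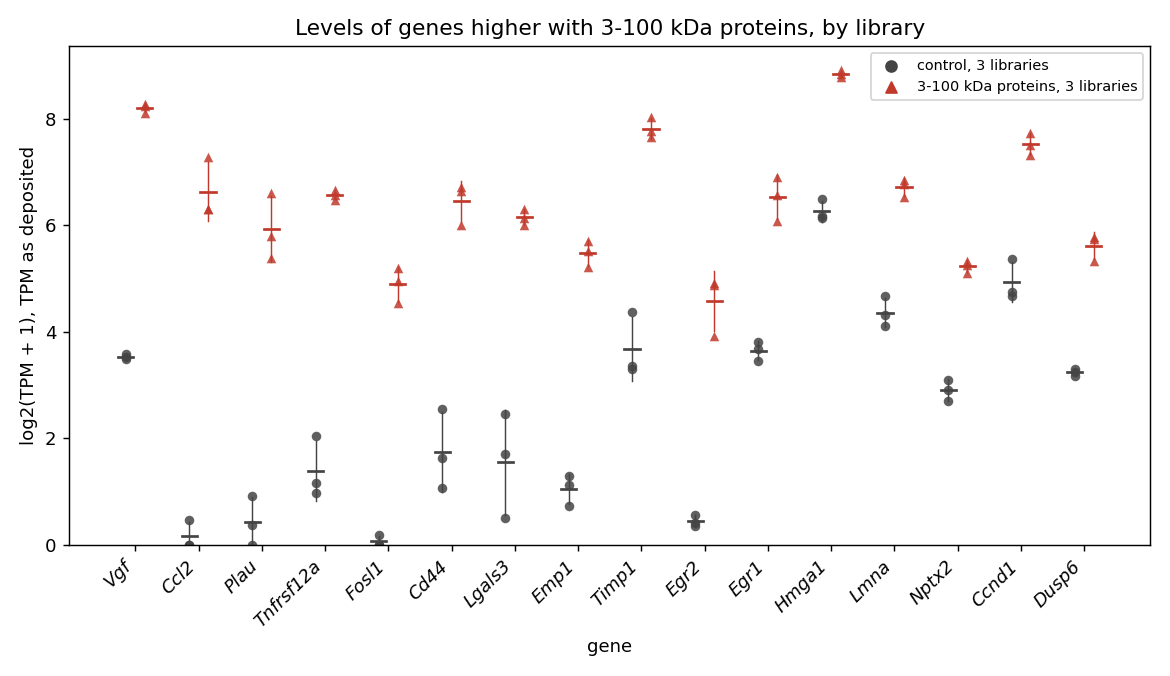
Levels of 16 higher genes as log2(TPM + 1) of the deposited values, with each of the 3 control libraries as a dark circle and each of the 3 treated libraries as a red triangle, the horizontal line at the mean and the vertical line ±1 SD. In every gene shown the treated libraries lie above all control libraries, with Vgf at 276–311 TPM against 10.2–11.02 TPM.

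Receptors and members of the gp130 and STAT3 pathway were among the higher genes, and the counts of their lists stand against 2.81% higher of all genes tested. Osmr, the receptor subunit for oncostatin M, rose from 0, 0.682 and 0.451 TPM to 8.69, 14.9 and 12.8 TPM. Stat3 itself stood at 29.0, 29.1 and 25.7 TPM in control and 60.7, 76.2 and 75.0 TPM in treated libraries (log2 fold change 1.33 ± 0.15, FDR = 0.0053). Clcf1, a cytokine that signals through the CNTF receptor, rose from at most 0.121 TPM to 3.70–7.39 TPM. In the whole list 4 of 19 tested genes were higher and 0 lower, with a median of 0.44. Tnfrsf12a, the receptor for the cytokine TWEAK, stood at 0.953, 3.10 and 1.23 TPM in control and 88.6, 94.3 and 99.9 TPM in treated libraries, and Tnfrsf1a, the main TNF receptor, rose from 12.6–16.4 TPM to 26.5–35.1 TPM. These were the 2 called genes of 13 tested NF-κB targets and TNF receptors. Of 11 tested interferon response genes 1, the GTPase gene Gbp2, was higher, at 0.636–0.891 TPM in control and 4.52–9.56 TPM in treated libraries, and the median of that list was −0.16.

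Genes of the cytoskeleton, cell surface and matrix were also among the higher genes. Of 23 tested targets of the transcription factor SRF, of YAP or of the actin cytoskeleton, 11 were higher and 1 lower, against 2.81% and 0.485% of all genes, with a median of 1.06. Cnn2, a calponin that binds actin, rose from 13.3, 10.4 and 9.83 TPM to 51.1, 52.99 and 61.2 TPM. Tagln2 rose from 5.41–12.6 TPM to 68.5–79.6 TPM, and Actn1, an actin cross-linker, from 24.6–30.2 TPM to 69.9–85.3 TPM. Flnc, a filamin, stood at 1.96, 3.85 and 2.24 TPM in control and 26.8, 37.0 and 57.9 TPM in treated libraries. The exception was Amotl2, a binding partner of YAP, which fell from 28.9, 27.1 and 25.0 TPM to 16.1, 12.4 and 11.8 TPM.

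Of 20 tested genes for annexins, S100 proteins, galectins and membrane proteins, 12 were higher and 0 lower, against 2.81% and 0.485% of all genes, with a median of 1.39. Cd44, the receptor for hyaluronan, rose from 4.87, 1.08 and 2.08 TPM to 63.5, 98.7 and 103.8 TPM, and Emp1, a small membrane protein gene, from 1.43, 0.664 and 1.18 TPM to 36.1, 44.9 and 51.0 TPM. Lgals3, the gene of galectin-3, stood at 2.27, 4.47 and 0.410 TPM and at 69.2, 63.6 and 78.4 TPM. Cavin1, a coat protein of caveolae, rose from 1.53–2.92 TPM to 22.6–30.2 TPM. In these 4 genes, as in every higher gene called, each treated library was above all control libraries. Of 27 tested collagens, laminins and matrix glycoproteins 6 were higher and 0 lower. Among them Spp1, the gene of osteopontin, rose from 0.193–1.11 TPM to 5.93–8.55 TPM and Lamc1, a laminin chain, from 7.96–9.91 TPM to 25.6–39.4 TPM. Of 9 tested integrins Itga5 and Itgb1, which together form the fibronectin receptor, were higher, Itga5 rising from 0.662, 0.147 and 0.523 TPM to 8.88, 8.90 and 8.25 TPM. The TGF-β list had 4 of 12 tested genes higher, among them Pmepa1 and Tgfbr2.

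Of 16 tested genes known for the reactive state of astrocytes, 10 were higher and 0 lower, against 2.81% and 0.485% of all genes, and the median was 2.21. Vcam1, an adhesion molecule, was lower by the unadjusted p and fold threshold, at 39.0, 25.2 and 30.3 TPM in control and 16.01, 21.9 and 16.8 TPM in treated libraries (FDR = 0.10). The list shares Cd44, Emp1, Timp1 and Osmr with groups above, and it also holds S1pr3, a receptor for sphingosine 1-phosphate, which rose from 4.84, 7.10 and 3.60 TPM to 31.7, 49.1 and 43.1 TPM. Of its other members Vim, the gene of the filament protein vimentin, rose from 107, 196 and 101 TPM to 437, 585 and 622 TPM. Control replicate 2 was the highest control library for Vim, Timp1, S1pr3 and Gfap. Without it all 10 genes still passed, with Vim at a log2 fold change of 2.40 against 2.10. Over all 6 omissions, however, the call of Vim held in 3. Of 22 tested genes for the everyday work of astrocytes 0 passed in limma in either direction, against 3.30% of all genes, and 0 passed the unadjusted p and fold threshold, against 10.1%. The difference between these lists was not tested. Slc1a2, their main glutamate transporter, ranged over 31.6–70.5 TPM in control and 32.9–78.1 TPM in treated libraries. The median of this list was 0.02, and its members ranged from −0.59 to 0.34.

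Of 26 tested neuronal genes that activity or neurotrophins induce, 11 were higher (against 2.81% of all genes), 0 lower and 15 without a call, with a median of 0.87. After Vgf, the lowest p was that of Nptx2, a secreted pentraxin that clusters AMPA receptors, which rose from 7.59, 6.52 and 5.49 TPM to 33.4, 39.2 and 37.3 TPM. Rgs4, a regulator of G-protein signalling, rose from 14.7–24.5 TPM to 70.0–89.8 TPM. Bdnf, the gene of brain-derived neurotrophic factor, stood at 2.64, 1.33 and 1.09 TPM in control and at 10.5, 8.94 and 7.82 TPM in treated libraries. Arc, which acts at synapses, rose from 0.622, 0.727 and 1.13 TPM to 5.69, 12.1 and 12.5 TPM. Of 24 tested neurotrophins, growth factors and receptors 4 were higher, Bdnf, Fgf2, Pdgfb and Igfbp3, and Fgf2 rose from 0, 0.187 and 1.11 TPM to 6.37, 10.2 and 10.8 TPM. Against 3.30% of all genes tested, no gene passed in limma among 18 tested AMPA, NMDA and kainate receptors, 19 of the GABA system or 29 of synaptic vesicles and release, with medians of −0.11, −0.01 and −0.09. Gria1 stood at 125–147 TPM in control and 106–129 TPM in treated libraries, and Syn1 at 144–175 TPM and 144–154 TPM. Of 30 tested potassium channels 2 were higher (6.67%, against 2.81% of all genes), among them Kcna1, which rose from 1.46–2.99 TPM to 10.8–15.2 TPM.

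Further higher members came from lists of chromatin, cell cycle and stress genes, whose counts stand against 2.81% higher of all genes tested. Hmga1, an architectural chromatin protein, stood at 69.2, 89.1 and 70.9 TPM in control and at 459, 483 and 443 TPM in treated libraries (log2 fold change 2.62 ± 0.14, FDR = 0.00039). Lmna, the gene of lamins A and C, rose from 18.8, 24.4 and 16.3 TPM to 115, 108 and 91.3 TPM. With Hmga2 they made 3 of 11 tested Hmga and lamin genes. Ccnd1, the gene of cyclin D1, rose from 25.9, 40.4 and 24.6 TPM to 158, 211 and 182 TPM, and its partner kinase gene Cdk6 from 3.24–4.05 TPM to 9.05–17.2 TPM. The inhibitor gene Cdkn1a rose too, from 22.8–29.0 TPM to 49.0–80.9 TPM, and these 3 were the only calls among 34 tested cell cycle and replication genes. Of 28 tested NRF2 and antioxidant genes 3 were higher, Srxn1, Hmox1 and Mt2A. Hmox1, the gene of haem oxygenase, rose from 11.96, 19.9 and 13.8 TPM to 45.4, 68.6 and 68.6 TPM. Bag3 and Hspb1, chaperone genes, were 2 of 3 higher among 19 tested heat shock genes. Slc1a5, a glutamine transporter, rose from 0.653–0.704 TPM to 11.6–22.3 TPM, and of 32 tested hypoxia and glycolysis genes 5 were higher, among them Adm and Hk2.

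**Figure D3:**
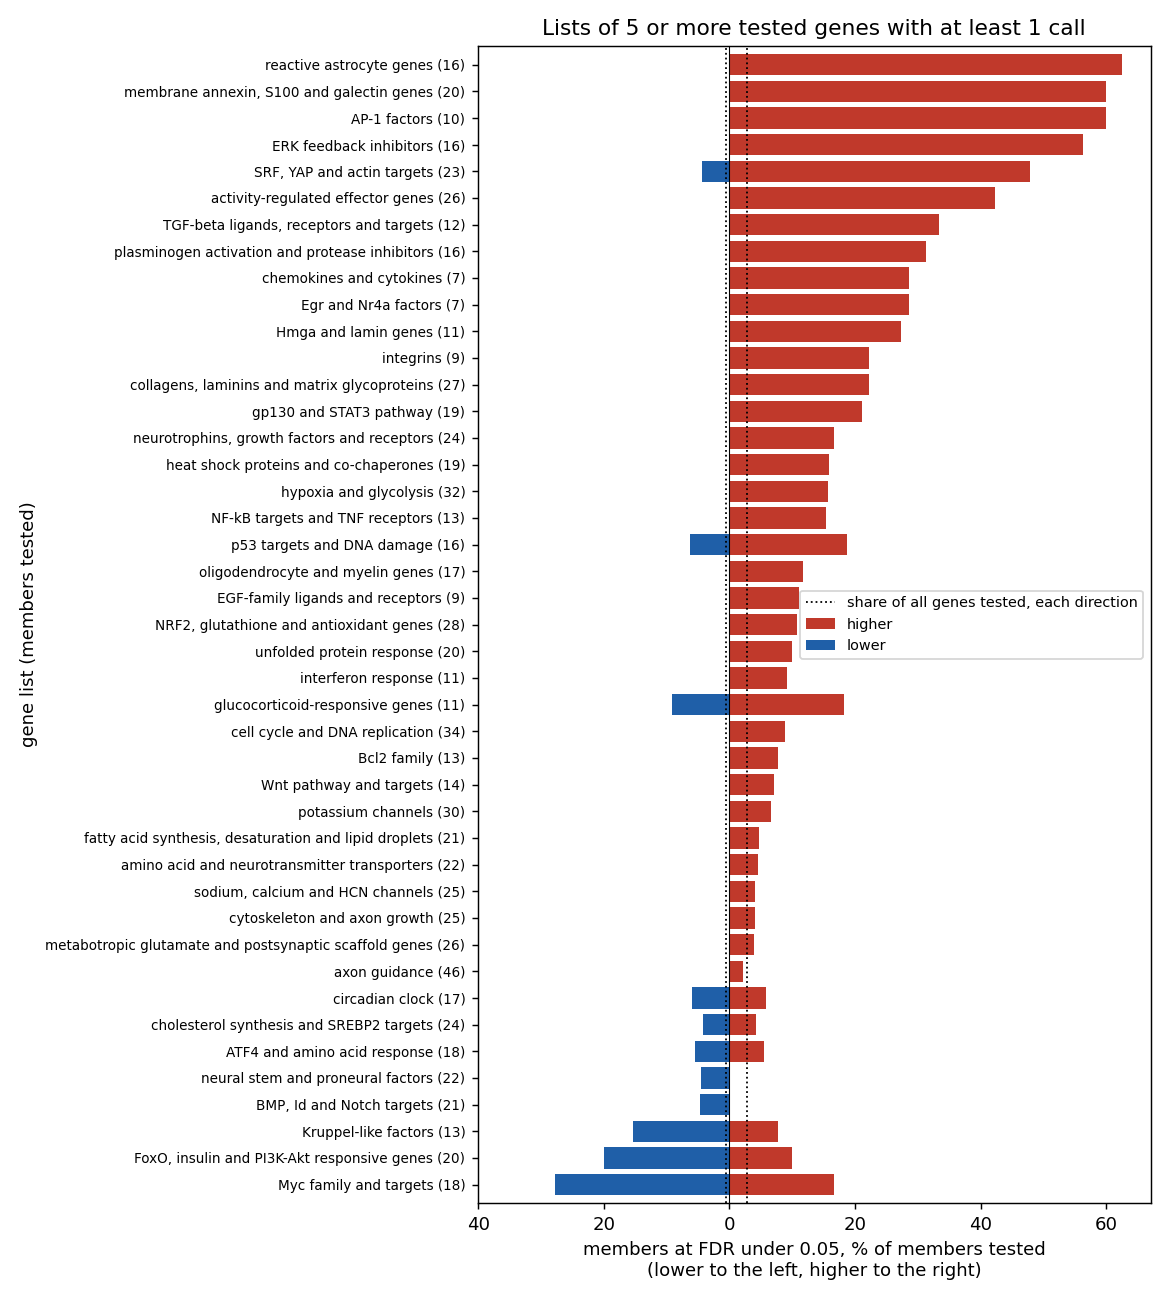
Bars give the share of tested members at FDR under 0.05 for each of the 43 gene lists with at least 5 tested members and at least 1 call, higher to the right in red and lower to the left in blue, with the number tested in brackets. The dotted lines mark the share over all genes tested, 2.81% higher and 0.485% lower, and the longest bars are those of reactive astrocyte genes (10 of 16) to the right and of the Myc family (5 of 18) to the left.

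Among the lower genes, several belong to the Myc and Max network, a family of transcription factors that bind E-boxes as pairs with Max. In this family Myc drives growth, while Mxd1, Mxd4, Mxi1 and Mnt compete with Myc for Max and repress the same sites. Of the 18 tested family members and targets 5 were lower and 3 higher, against 0.485% and 2.81% of all genes tested. The list was thus not lower as a whole: its median log2 fold change was 0.38, and 12 members had a positive one. At the unadjusted p and fold threshold 5 were lower and 5 higher. Mycl, the Myc relative of neurons and other tissues, fell from 36.6, 37.0 and 31.9 TPM to 9.35, 8.63 and 8.51 TPM, a log2 fold change of −1.85 ± 0.14 (n = 3 per group, FDR = 0.0013). It passed in all 6 omissions of a library. Mxd4 stood at 32.5, 42.0 and 28.4 TPM in control and at 15.7, 13.4 and 12.5 TPM in treated libraries (−1.21 ± 0.17). Mxd1 fell from 13.7, 9.08 and 7.99 TPM to 4.59, 3.87 and 3.11 TPM. Mxi1 fell from 47.0, 42.0 and 37.7 TPM to 22.5, 27.0 and 22.9 TPM, and Mnt from 17.6, 15.8 and 17.0 TPM to 7.998, 9.99 and 8.66 TPM. In each of these 5 genes, as in every lower gene called, all treated libraries lay below all control libraries. Mxd4, however, passed in 3 of the 6 omissions and Mxd1, Mxi1 and Mnt in 1 each. Myc itself moved the other way, from 22.8, 18.3 and 17.3 TPM to 35.3, 47.7 and 49.1 TPM (1.16 ± 0.19, FDR = 0.021). Its call held in 2 of the 6 omissions. Max, the common partner, stood at 121, 99.9 and 88.3 TPM and 115, 107 and 106 TPM, and Mycn at 46.0, 33.7 and 35.9 TPM and 33.8, 24.4 and 22.6 TPM, neither past the FDR threshold. Of the targets on the list Gar1 and Nop58, both parts of small nucleolar ribonucleoproteins, were higher. Gar1 passed in all 6 omissions and Nop58 in 1.

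Genes that FoxO factors hold up, or that insulin and Akt signalling turn down, were the other group with several lower members. Of 20 tested, 4 were lower and 2 higher, against 0.485% and 2.81% of all genes, with a median of −0.31. Pik3ip1, which encodes a membrane inhibitor of PI3K, fell from 17.2, 18.6 and 12.1 TPM to 4.65, 4.51 and 2.95 TPM (log2 fold change −1.73 ± 0.20, FDR = 0.0060) and passed in all 6 omissions. Ccng2, an unusual cyclin of resting cells and a known FoxO target, fell from 49.6, 37.1 and 46.9 TPM to 20.4, 21.3 and 18.4 TPM. Klf15, a Krüppel-like factor of metabolism, fell from 5.50, 4.01 and 4.12 TPM to 0.603, 1.33 and 0.461 TPM. Sesn1, a sestrin that holds back mTORC1, fell from 17.1, 17.6 and 17.5 TPM to 10.5, 8.58 and 9.07 TPM, although its call was lost in each of the 6 omissions. Foxo3 had 9.61, 6.90 and 7.93 TPM in control and 3.76, 5.67 and 3.37 TPM in treated libraries, and Pik3r3, a PI3K regulatory subunit, 46.3, 48.6 and 44.5 TPM and 29.98, 34.5 and 24.6 TPM. Both passed the unadjusted p and fold threshold but not the FDR threshold, at 0.11 and 0.054. At that unadjusted threshold 7 members of the list were lower and 3 higher, and these included Irs2, an adaptor of the insulin receptor, at 16.4, 12.2 and 15.99 TPM in control and 17.8, 28.5 and 24.5 TPM in treated libraries, with an FDR of 0.19. The higher members Trib1 and Trib2 encode pseudokinases, and Trib2 rose from 48.8–71.2 TPM to 122–149 TPM. Ddit4, an mTORC1 inhibitor that also answers to glucocorticoids and stress, fell from 70.1, 69.2 and 46.2 TPM to 25.1, 14.5 and 18.5 TPM. Hbp1, a repressor that slows the cell cycle and that FoxO factors control, fell from 14.0, 11.2 and 12.3 TPM to 5.39, 7.12 and 3.27 TPM, with no call in any omission.

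**Figure D4:**
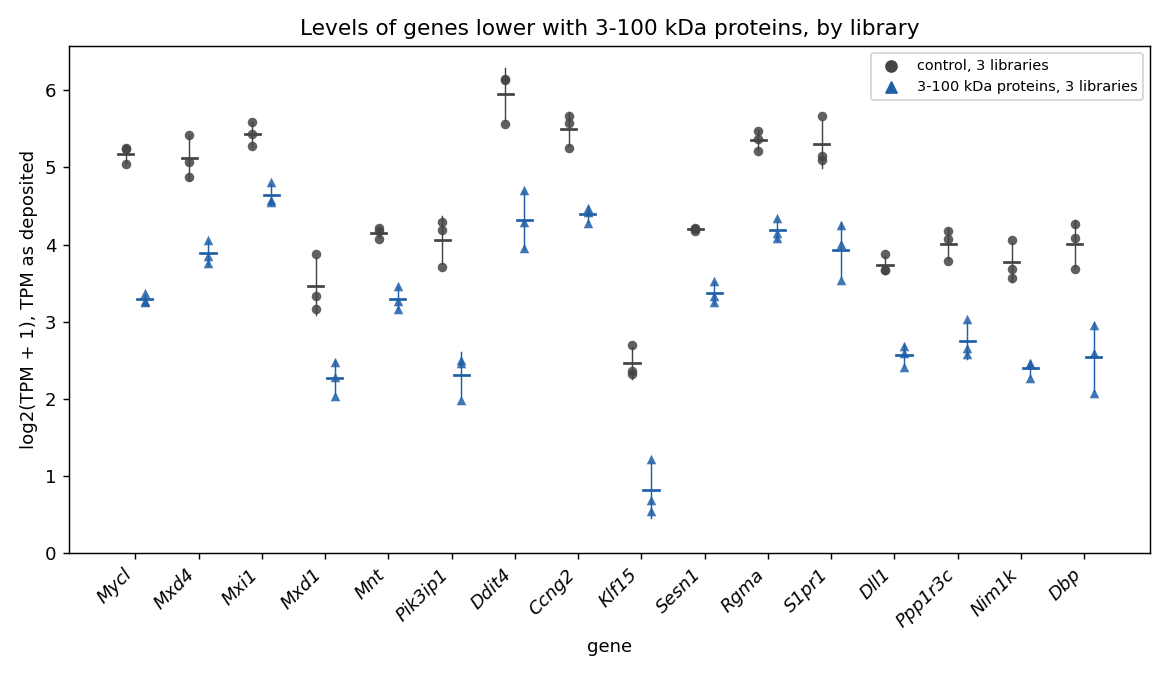
Levels of 16 lower genes as log2(TPM + 1) of the deposited values, with each of the 3 control libraries as a dark circle and each of the 3 treated libraries as a blue triangle, the horizontal line at the mean and the vertical line ±1 SD. No treated library of any gene shown reaches the lowest control library of that gene, with Mycl at 8.51–9.35 TPM against 31.9–37.0 TPM.

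Further lower genes, picked after their values were seen, encode enzymes and kinases. Ppp1r3c, which brings protein phosphatase 1 to glycogen, fell from 17.1, 15.8 and 12.8 TPM to 4.98, 7.19 and 5.29 TPM. Nim1k, a kinase related to AMPK, fell from 11.8, 15.6 and 10.9 TPM to 4.50, 4.45 and 3.83 TPM. Dyrk1b, a kinase known for keeping cells quiescent, fell from 8.35, 7.74 and 7.81 TPM to 2.75, 3.33 and 2.93 TPM. Map2k6, a kinase that activates p38, fell from 23.9, 26.0 and 21.4 TPM to 10.6, 13.5 and 11.1 TPM. Dhcr7, the last enzyme of cholesterol synthesis, fell from 53.2–62.7 TPM to 35.9–36.8 TPM, while Msmo1, an earlier enzyme of the pathway, rose from 133–149 TPM to 250–324 TPM. These were the only calls among 24 tested cholesterol synthesis genes, 4.17% in each direction against 2.81% higher and 0.485% lower of all genes. Map2k6 and Dhcr7 passed in 1 omission each, Dyrk1b in 2, and Ppp1r3c and Nim1k in 4.

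The next lower genes, which encode membrane proteins and receptors, were also picked after their values were seen and stand for no tested group. Rgma, a membrane-anchored guidance molecule and BMP co-receptor, fell from 43.3, 40.4 and 36.2 TPM to 15.9, 19.4 and 16.7 TPM (log2 fold change −1.13 ± 0.13, FDR = 0.0060) and passed in all 6 omissions. S1pr1, a sphingosine 1-phosphate receptor, fell from 49.7, 33.4 and 34.4 TPM to 15.0, 18.1 and 10.7 TPM, in the opposite direction to S1pr3 above. Pdgfrb, the receptor for platelet-derived growth factor B that marks pericytes, fell from 3.18, 4.01 and 2.45 TPM to 0.481, 0.851 and 0.321 TPM without passing in any omission, while the 8 markers of pericytes, fibroblasts and meningeal cells together summed to 3.15–4.28 TPM and 3.30–4.17 TPM. Its ligand gene Pdgfb rose, from 3.88–4.37 TPM to 9.20–14.9 TPM. Paqr7, a membrane progestin receptor, fell from 16.5, 19.3 and 12.9 TPM to 7.15, 4.87 and 4.95 TPM. Sema6c, a semaphorin, fell from 20.2–28.2 TPM to 10.7–14.3 TPM. The list of 46 tested axon guidance genes had 0 lower and 1 higher call, Sema3c, which is 2.17% higher against 2.81% of all genes tested and 0 lower against 0.485%, while 33 of its members had a negative and 13 a positive fold change, with a median of −0.16.

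The BMP, Id and Notch list and the Wnt list had 1 call each, which is 4.76% lower and 7.14% higher of those tested, against 0.485% and 2.81% of all genes. Dll1, a Notch ligand, fell from 11.7, 13.6 and 11.8 TPM to 5.06, 5.45 and 4.34 TPM and was the only call among 21 tested BMP, Id and Notch genes, of which the median was −0.30. By the unadjusted p and fold threshold 5 of these were lower and 2 higher. Hes5, a Notch target, had 7.08, 6.72 and 8.53 TPM in control and 2.64, 1.87 and 0 TPM in treated libraries. Id3, a BMP target, had 5.73, 9.30 and 2.62 TPM and 0, 0.478 and 1.49 TPM, and its relative Id1 had 8.63, 5.45 and 3.70 TPM and 11.2, 13.2 and 16.01 TPM. The FDR was 0.075 for Hes5, 0.072 for Id3 and 0.083 for Id1. Among called genes outside the lists, Dtx4, a regulator of Notch, fell from 64.1–71.4 TPM to 35.3–43.9 TPM, and Vangl2 and Dact1, of planar polarity and Wnt signalling, fell from 23.0–29.7 TPM to 13.5–16.8 TPM and from 29.0–37.5 TPM to 13.8–20.4 TPM. Dtx4 and Dact1 passed in 1 omission each and Vangl2 in none. Of 14 tested Wnt genes the single call was Lef1, higher at 2.26–5.45 TPM against 0.105–0.204 TPM. Lef1 passed the filter only through the treated libraries, and its call held in 2 of the 6 omissions.

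Among transcription factors of neural development 4.55% of those tested were lower, and among clock genes 5.88% were lower and 5.88% higher, which is 1 gene in each case, against 0.485% lower and 2.81% higher of all genes tested. Of 22 tested neural stem and proneural factors 19 had a negative fold change, the median was −0.28, and 1 passed. This was Emx1, a factor of the dorsal cortex, which fell from 8.32, 8.79 and 7.55 TPM to 4.75, 3.97 and 3.54 TPM and lost its call in all 6 omissions. Outside the list Bhlhe22, a factor of cortical neurons, fell from 120.2, 65.5 and 106 TPM to 35.6, 33.1 and 40.6 TPM. Bhlhe22 passed in 1 omission, as did each of Dbp, Klf11 and the higher gene Cry1 that follow, while Klf10 passed in 5. Of 17 tested clock genes Dbp, an output gene of the clock, fell from 18.3, 15.97 and 11.8 TPM to 6.73, 3.21 and 5.01 TPM, and Cry1, a repressor in its core loop, rose from 13.5, 9.13 and 11.9 TPM to 22.9, 22.4 and 22.7 TPM. By the unadjusted p and fold threshold Tef, Nr1d1, Nr1d2 and Hlf were lower and Per2 was higher, with FDR values from 0.12 to 0.18. Of 13 tested Krüppel-like factors, with the same background shares, Klf15 and Klf11 were lower and Klf10 was higher, Klf10 rising from 8.83–14.4 TPM to 35.3–68.6 TPM and Klf11 falling from 14.6–18.9 TPM to 5.14–9.88 TPM.

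**Figure D5:**
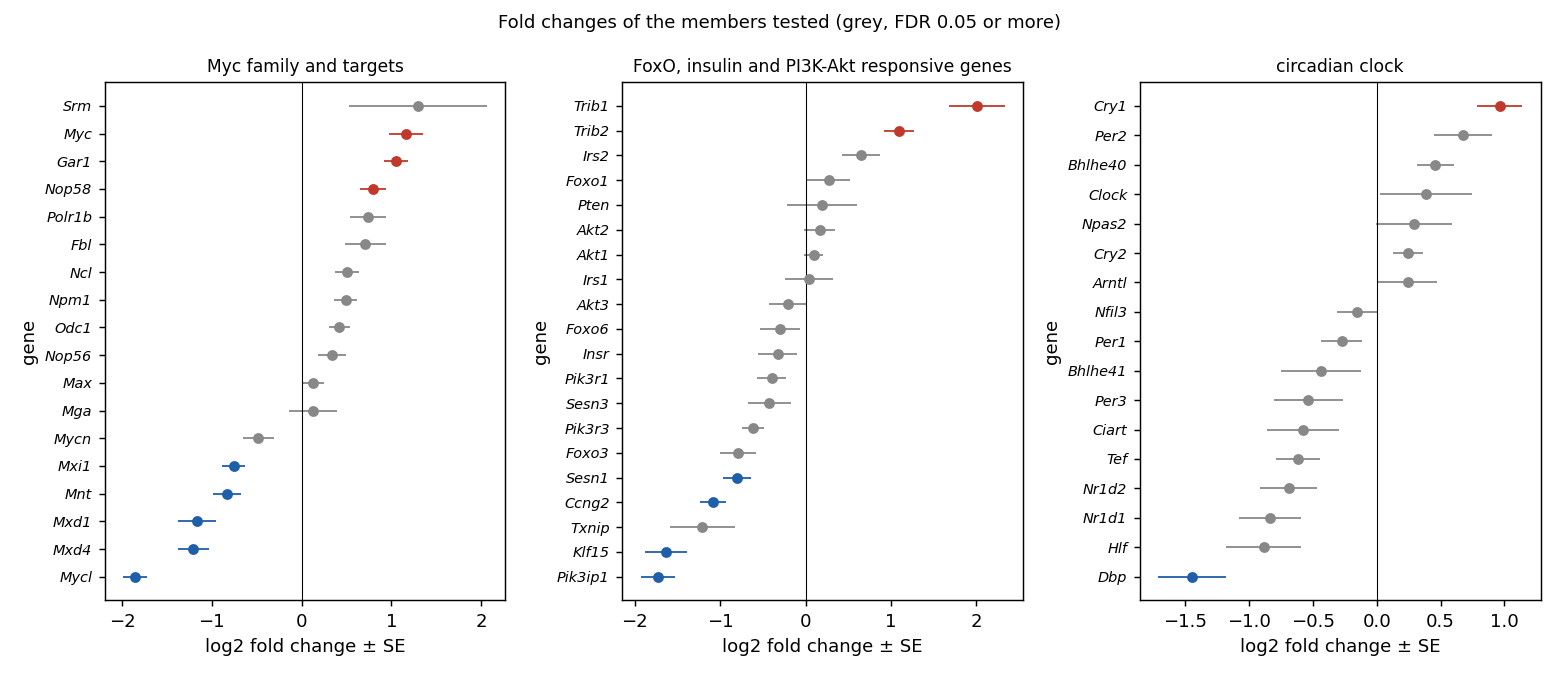
Log2 fold changes with their standard errors on the x axis for all tested members of 3 lists, named on the y axis, with red for higher and blue for lower at FDR under 0.05 and grey for the rest. In the left panel Mycl (−1.85) and the 4 competitors of Myc lie left of 0 while Myc (1.16) lies right of it, in the middle panel Pik3ip1 (−1.73) and Trib1 (2.01) mark the ends, and in the right panel Dbp (−1.45) and Cry1 (0.96) do.

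Oligodendrocyte genes had no lower call, although 11 of 17 tested had a negative fold change. Of the 17, 5 were lower by the unadjusted p and fold threshold and the median was −0.38, while the 2 genes that passed the FDR threshold were higher, against 2.81% of all genes. Gpr17, a receptor of cells that are about to become oligodendrocytes, had 27.6, 16.1 and 10.0 TPM in control and 10.9, 4.23 and 1.22 TPM in treated libraries (FDR = 0.17). The 2 higher genes were Tmem100, at 16.4–30.3 TPM and 87.9–95.7 TPM, and Ndrg1, at 107–141 TPM and 198–253 TPM, which is also induced by hypoxia. The lower sum of lineage markers given above moves with this group, and its part in it was not tested.

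Other lower genes included small RNAs and genes listed at 0. SNORD33, a small nucleolar RNA, was listed at 39.8, 16.9 and 120.1 TPM in control and at 0 in all treated libraries, and SNORA57 at 6.74, 5.79 and 6.53 TPM and at 0. Hist1h3f, a histone gene, was listed at 4.01, 1.79 and 2.90 TPM and at 0. In all, 6 lower genes were at 0 in every treated library and 5 higher genes were at 0 in every control library. Because every library had 0 for Rps6, a ribosomal protein gene used by all cells, such a 0 may be a failed estimate. No fold change is printed for these genes, but they are included in the counts and medians of called genes above. LOC679823 was listed at 9.38, 10.8 and 8.33 TPM in control and at 0, 3.36 and 0 TPM in treated libraries, and passed in 1 omission. Klhl25, outside every list, fell from 14.6, 20.6 and 15.0 TPM to 7.97, 4.98 and 4.70 TPM. Kank1, a regulator of actin at adhesions, fell from 10.00, 8.90 and 8.34 TPM to 3.93, 3.32 and 3.07 TPM, and Narf, a nuclear protein that binds prelamin A, from 41.6, 39.8 and 37.3 TPM to 24.0, 21.0 and 18.8 TPM.

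Against shares of 3.30% and 10.1% of all genes tested, none of 44 tested cytoplasmic ribosomal protein genes, 38 nuclear respiratory chain genes, 13 genes of the mitochondrial genome or 29 ubiquitin, proteasome and autophagy genes passed the FDR threshold in limma or the unadjusted p and fold threshold. Their medians were 0.06, −0.05, 0.23 and 0.02. Rpl3 stood at 462–739 TPM in control and 558–868 TPM in treated libraries, and Mt-nd1 at 1750–3366 TPM and 2435–3513 TPM, both with overlapping groups.

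The cultures given the other preparations shared the same control libraries but received other doses, so their values are set side by side without a comparison. Vgf had a mean of 10.6 ± 0.425 TPM (SD, n = 3) in control, 296 ± 17.9 TPM with the 3–100 kDa proteins at 15 µg/mL, 178 ± 24.0 TPM with the total secretome at 45 µg/mL and 48.5 ± 6.29 TPM with vesicles at 10 µg/mL. Mycl had 35.2 ± 2.86 TPM, 8.83 ± 0.454 TPM, 8.99 ± 1.34 TPM and 28.6 ± 3.87 TPM in the same order. Pik3ip1 had 15.9 ± 3.43 TPM, 4.04 ± 0.945 TPM, 4.78 ± 1.85 TPM and 10.96 ± 1.56 TPM, and Plau 0.393 ± 0.455 TPM, 64.2 ± 29.3 TPM, 12.1 ± 7.83 TPM and 4.13 ± 0.937 TPM.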

How the data were processed

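RNA was measured in 6 bulk libraries, 3 of control cultures and 3 of cultures given the 3–100 kDa proteins, grouped by their labels. According to the methods of the article, the authors trimmed the reads, estimated transcripts with Salmon against Ensembl transcripts of the rat genome Rnor 6.0 and summed them per gene with tximport. The deposited values of the authors are in TPM, a unit inferred here from library totals of 1000000 because no header names it, so the read depth is unknown and neither counting intervals nor a count test could be given. The labels and the article describe different library kits and instruments. Estimated TPM can be 0 where reads are shared between near-identical genes.

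Rows of 1 gene name were summed, genes with at least 1 TPM in 3 of 6 libraries were kept, values were scaled by median of ratios (factors 0.907–1.07), and log2(TPM + 1) was fitted in limma 3.58.1 (R 4.3.3) with a mean-variance trend and Benjamini-Hochberg adjustment (FDR). The fit was tested on simulated data. Named genes were those of largest change, of lowest p, and up to 3 per direction in each gene list; further genes were named after their values were seen. Members and lists were chosen with earlier results of these data known. Vgf was identified by gene number and Cavin1 by an older symbol. Same-numbered libraries of the groups deviated from their group means with r of −0.0068, −0.25 and 0.25, and other pairs ranged from −0.42 to 0.36. With 3 libraries a group these values cannot tell whether the numbers pair the libraries. The alternatives tried were other pseudocounts, filters and scalings, leaving out gene classes or each library, a fit of all 12 libraries, a fit without the trend and a replicate block. Results that involve a few withheld genes are not reported here.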

Additional observations from a re-analysis of the deposited data

How the results depend on the processing

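All 422 genes kept their direction in each omission of 1 library, but the number of calls did not hold. Leaving out 1 library gave 127–464 genes at FDR under 0.05, 118–384 of them higher and 8–80 lower, and at the unadjusted p and fold threshold 710–1063 higher and 380–589 lower. The lowest total came without the third treated library and the highest without the second control library; without the third control library 212 passed and without the first treated library 295. A pseudocount of 5, which shrinks low genes by construction, left 518 higher and 145 lower genes at the unadjusted p and fold threshold, against 847 and 439. The fit of all 12 libraries, which has more samples, gave 937 genes, 674 higher and 263 lower. With a replicate block 192 genes passed, 176 higher and 16 lower, and these included 174 of the higher and 12 of the lower genes. Whether the numbers pair the libraries is not known, and the reason for the smaller count was not tested. Other pseudocounts, filters, scalings and gene classes gave 324–444 genes. Without rescaling the median of all genes moved to −0.05. Of the uncalled genes, Slc17a7 changed sign without rescaling (−0.00893) and with upper-quartile scaling (−0.0117). Of the 486 genes followed through the alternatives, leaving out 1 library turned the sign of 5, none of them called, with log2 fold changes of −0.0741 to 0.361 for Mt-nd1, −0.0224 to 0.229 for Rpl3, −0.0666 to 0.10 for Slc17a7, −0.078 to 0.667 for Slc1a2 and −0.184 to 0.0148 for Syn1. The unknown depth limits what can be said of genes near 0.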

Other observations

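Some genes of ribosome assembly in the nucleolus were higher. The genes were gathered by their symbols (the Utp, Nop, Rrp, Noc and Nol families) after the data had been seen. Of 36 tested, 6 were higher, 0 lower and 30 without a call at FDR under 0.05 in limma, against 2.81% of all genes tested higher, and 34 had a positive fold change, with a median of 0.42. Rrp1b stood at 14.1, 13.8 and 12.8 TPM in control and 29.6, 26.8 and 23.2 TPM in treated libraries. Nop58, a core protein of small nucleolar ribonucleoproteins, stood at 94.5, 112 and 77.8 TPM and at 179, 161 and 142 TPM. All treated libraries of both genes were above all control libraries, as in every higher gene called.

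Several receptor and neuropeptide genes were also among the higher genes, and they too were picked after their values were seen. Il1rap, the shared subunit of interleukin-1 family receptors, rose from 3.90, 3.28 and 5.44 TPM to 16.9, 33.9 and 31.8 TPM. Gal, the gene of the neuropeptide galanin, rose from 1.12, 0.606 and 0 TPM to 6.34, 6.50 and 5.51 TPM. Mchr1, a receptor of melanin-concentrating hormone, rose from 3.08, 2.62 and 3.54 TPM to 10.9, 13.01 and 14.8 TPM. Bdkrb2, the bradykinin receptor gene, rose from 0.131–0.717 TPM to 4.16–4.77 TPM, and Agtr1a, an angiotensin II receptor gene, from 0.614–1.39 TPM to 4.65–5.19 TPM. As in all called genes, the groups did not overlap in any of these 5.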
